A study of Mus musculus with 6 samples.

Results

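Described here are 10 immediate early or EGF-responsive genes outside the AP-1 family: Egr1, Egr2, Egr3, Nr4a1, Nr4a2, Nr4a3, Ier2, Ier3, Ier5 and Srf. They were chosen by name, with earlier results of these data known. Each was read from the 1 probe set that the platform annotation gives to that gene alone. All 10 had a value among the 22180 genes that could be named in this way, and 9 were among the 13308 genes tested, the exception being Nr4a3, whose mean signal lay under the level that separated the dimmest 40% of genes. RNA came from mouse inner medullary collecting duct (IMCD) cells, an epithelial line of the kidney, carrying a lentiviral vector for GFP together with an ILK coding sequence. In 3 samples the vector encoded wild type ILK, and in the other 3 it encoded the missense variant ILK-T173I. Integrin-linked kinase (ILK) joins integrins to the actin cytoskeleton at focal adhesions. EGF was given to every culture at 20 ng/ml for 15 minutes, and RNA was taken after 1 more hour, so no sample shows the level before EGF, and a level here is a point in the response and not the size of an induction. The labels call the 3 samples of a group biological replicates. The labels do not say whether a group is 1 clone, 1 pool or several lines, and the p-values measure the spread between these arrays. With 1 line per group, line and variant cannot be told apart.

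Immediate early genes are transcribed within minutes of a growth factor signal without new protein synthesis. EGF activates its receptor and, through RAS and RAF, the kinases MEK and ERK. ERK phosphorylates ternary complex factors such as ELK1, which sit with a dimer of SRF, the serum response factor, on a DNA element called the CArG box. SRF also acts with actin-regulated cofactors, the MRTFs, on genes of the cytoskeleton. The EGR proteins are zinc finger transcription factors, the NR4A proteins are orphan nuclear receptors whose genes respond to many signals, cAMP among them, and the IER proteins are short-lived regulators of growth and survival. The transcripts of many of these genes are unstable, so that a level about an hour after a pulse can lie past the peak.

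Promoter sequence was searched for elements through which immediate early genes are known to be read. RefSeq windows of assembly GRCm38.p6 were at hand for 7 of the 10 genes, Egr2 with 5 annotated starts, and the 250 bases before each start were searched on both strands. No window was at hand for Egr1, Egr3 and Ier2, so their promoters were not searched. A CArG box, searched as CCWWWWWWGG with W for A or T, was found for Srf and Egr2, and in 1.47% of all 32851 windows of the same length. The stretch of 140 bases before the Srf start at chr17:46556163-46556302 (minus strand) holds 2 of them, shown in capitals, and is printed because Srf was higher on all 3 T173I arrays than on any wild-type array. The start it precedes lies inside the annotated span of Srf, since other transcripts begin further upstream. For Egr2, which has 2 boxes, 30 bases around 1 of them at chr10:67537787-67537816 (plus strand) are printed, with the box in capitals.
Srf: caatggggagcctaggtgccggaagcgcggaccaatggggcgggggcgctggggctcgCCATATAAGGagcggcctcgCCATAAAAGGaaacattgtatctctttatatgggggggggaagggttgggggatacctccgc
Egr2: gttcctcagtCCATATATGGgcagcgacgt

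The 2 boxes of Srf begin 82 and 62 bases before its start, and the printed box of Egr2 begins 72 bases before the third of its 5 listed starts. A second Egr2 box, at chr10:67537494-67537503, begins 72 bases before the second of those starts. Nr4a1 and Nr4a2, printed because Nr4a1 had the widest range over the arrays and Nr4a2 is its close relative, had no CArG box in these letters. Near matches to the CArG pattern were not counted for any gene. Each had 4 matches to TGACG, the core of the cAMP response element, in either orientation (TGACG or CGTCA, in capitals), a motif found in 17.8% of all windows. Nr4a3 had 4 matches as well, Egr2 had 2 at 3 of its 5 starts and Srf had 1. The Nr4a1 stretch is chr15:101266596-101266845 (plus strand) and that of Nr4a2 is chr2:57124004-57124253 (minus strand), each the 250 bases before the start.
Nr4a1: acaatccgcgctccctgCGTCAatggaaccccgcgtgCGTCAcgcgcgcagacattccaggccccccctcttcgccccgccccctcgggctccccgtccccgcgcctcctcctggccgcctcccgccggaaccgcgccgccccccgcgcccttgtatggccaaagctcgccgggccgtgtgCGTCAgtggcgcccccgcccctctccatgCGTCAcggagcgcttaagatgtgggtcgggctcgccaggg
Nr4a2: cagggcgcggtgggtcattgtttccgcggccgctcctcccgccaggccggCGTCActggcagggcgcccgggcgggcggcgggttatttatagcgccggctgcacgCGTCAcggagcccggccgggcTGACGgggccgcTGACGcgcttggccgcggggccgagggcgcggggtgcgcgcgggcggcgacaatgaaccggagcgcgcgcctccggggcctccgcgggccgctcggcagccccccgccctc

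The Ets core CGGAA, part of the site of the ternary complex factors, was present for Srf, Egr2, Nr4a1 and Nr4a2 and in 25.2% of all windows. The site of the EGR proteins themselves, searched as GCGNGGGCG, was present for Srf, Nr4a1 and Nr4a2 and in 4.70% of all windows. None of these matches overlapped a match to another of the 4 motifs. Neither Ier3 nor Ier5 had a match to any of the 4 in its window. A match describes the letters and not the binding of a factor.

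**Figure D1:**
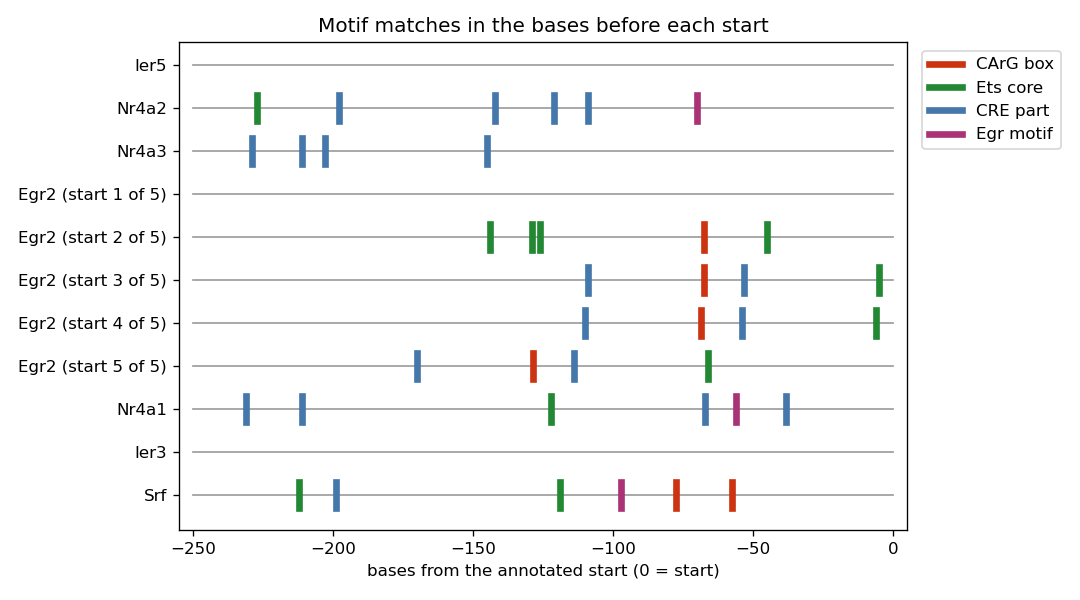
Motif matches in the 250 bases before each annotated start; the x axis is the distance from the start in bases, each line is 1 start, and each bar is the centre of 1 match on either strand. CArG boxes lie at Srf (2) and Egr2 (2, the one before start 3 being the same as that before starts 4 and 5), and the TGACG matches (CRE part) at the 3 Nr4a genes (4 each), Egr2 and Srf.

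Median log2 signal ran from 5.45 to 5.52 over the 6 arrays. Arrays of the wild-type group correlated with each other at 0.989 to 0.993 over the tested genes and those of the T173I group at 0.964 to 0.983. The markers fixed for epithelium were bright, Cdh1 (E-cadherin) at a log2 signal of 11.2 to 11.4 on every array and Epcam at 10.4 to 11.2. The collecting duct factors Pax2 (9.35 to 9.79) and Tfcp2l1 (7.52 to 7.72) were above the filter level of 5.37. Gata3, another transcription factor of that list, was at 6.91, 7.34 and 6.99 in wild type and at 6.33, 6.12 and 6.47 in T173I, with the groups apart and a difference of -0.78 (unadjusted p = 0.0013, adjusted p = 0.449 in limma). The water channel Aqp2, which defines principal cells in the kidney, was near the filter level at 5.97 to 6.25, as was Scnn1a at 6.22 to 6.30. Avpr2 was at 6.07 to 7.20 and Cdh16 at 7.09 to 8.54. Aqp3 (5.04 to 5.48) and Elf5 (4.71 to 5.06) had means under the filter. All 3 endothelial markers, 2 of 3 leukocyte markers and 4 of 7 fibroblast markers had means under the filter. Markers of other cell types with means above it were the fibroblast markers Col1a1 (6.10 to 6.42), Col1a2 and Postn (4.30 to 8.05). So were Nphs1 of podocytes (5.71 to 5.83), Slc34a1 of the proximal tubule, and Foxi1 (6.22 to 6.55), Atp6v1b1 and Slc4a1 of intercalated cells. The filter level thus did not separate collecting duct markers from those of other cell types. The mean of the leukocyte list was 5.34 to 5.67 on wild-type arrays and 5.80, 5.83 and 6.03 on the T173I arrays. In that list Cd68, a lysosomal protein of macrophages and other cells, was at 7.47 to 8.26 in wild type and 8.40 to 9.63 in T173I, while the defining leukocyte marker Ptprc was at 3.55 to 3.81 on every array. The mean of the epithelial list was 10.2 to 10.3 on wild-type arrays and 10.6 to 10.8 on T173I arrays. Its 4 keratins were higher on each T173I array than on any wild-type array, as were 7.23% of all genes tested. Each of the 4 had an adjusted p of 0.449 in limma. The part of these markers in the results below was not tested. In extracts of whole cultures, fewer cells making an RNA and less RNA per cell cannot be told apart.

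Each difference below is a log2 value in T173I less that in wild type, and its 95% interval is that of the fit. Of the 9 members tested, 0 passed an adjusted p of 0.05 in limma's fit over all genes, and 0 of all 13308 genes (0%) did. The lowest adjusted p among the members was 0.449 and that among all genes 0.335. At an unadjusted p under 0.05 there were 3 members, Srf and Egr3 higher in T173I and Egr1 lower, where 10.2% of all genes tested were called in either direction, 4.88% higher and 5.31% lower. The groups did not overlap for 3 members, Srf on the higher side and Egr1 and Ier2 on the lower side. That held for 15.2% of all genes, 7.23% higher and 7.95% lower. Of the 9 members 6 had positive differences, as did 47.4% of all genes. The median difference of the members was 0.21 and that of all genes -0.011. With T173I replicate 2 left out the members' median turned to -0.063, and leaving out T173I replicate 1 instead made it 0.41. In the latter case 4 members had an unadjusted p under 0.05, where 22.1% of all genes did. The smallest p of an exact permutation test with 3 arrays in each group is 0.1. Because the members were chosen with earlier results of these data known, their counts beside the shares of all genes are descriptions.

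**Figure D2:**
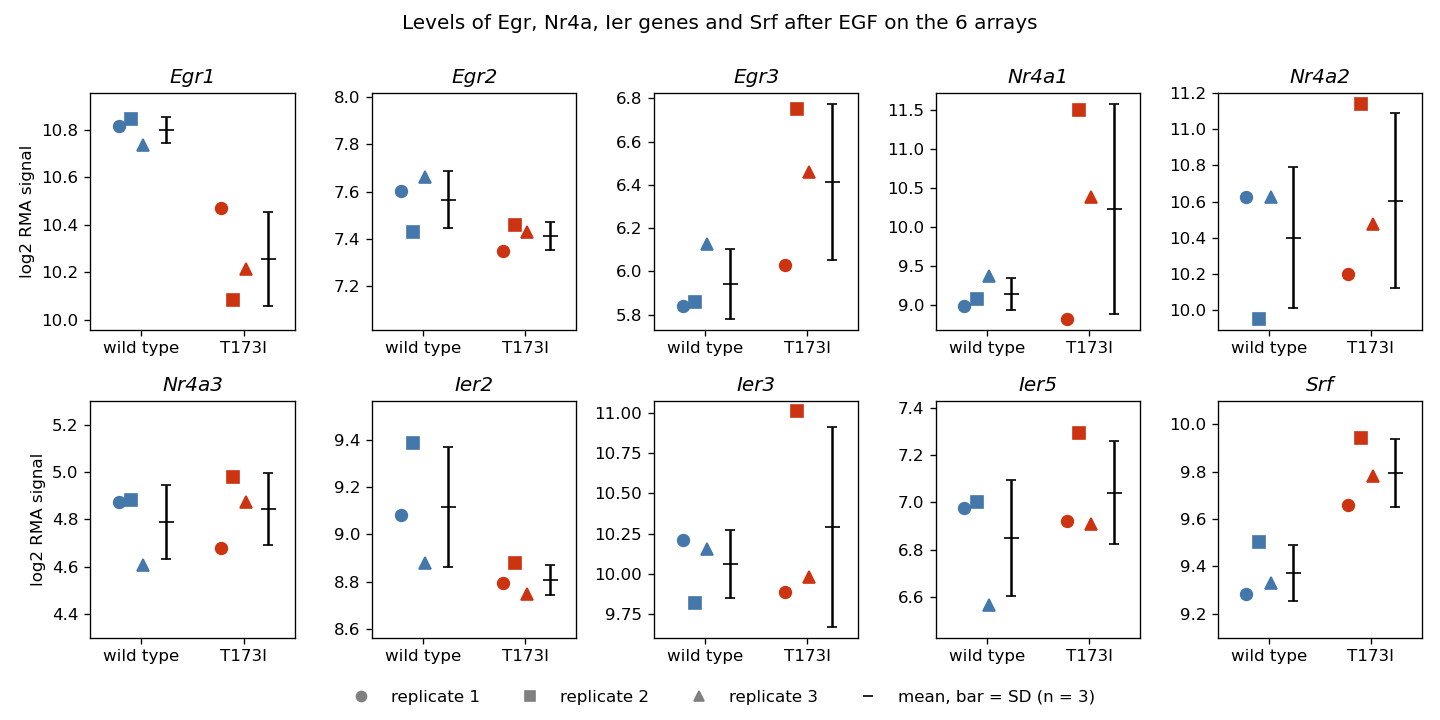
Log2 signal (RMA) of each of the 10 genes on the 3 wild-type and 3 T173I arrays; each point is 1 array, its shape the replicate number, the horizontal tick the group mean and the bar the SD (n = 3), with a separate y axis for each gene. The groups lie apart for Egr1, Ier2 and Srf, and Nr4a1 spans the widest range, 8.82 to 11.50, within the T173I group.

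Srf, the factor that binds the CArG box and whose gene carries 2 such boxes, stood at log2 signals of 9.28, 9.50 and 9.33 on wild-type replicates 1 to 3 and at 9.66, 9.94 and 9.78 on T173I replicates 1 to 3. Every T173I array was above every wild-type array. The group means were 9.37 ± 0.12 (SD, n = 3) and 9.79 ± 0.14 (SD, n = 3), a difference of 0.42 (95% interval 0.16 to 0.68), or 1.34-fold. Its unadjusted p was 0.0064, the 163rd smallest of the 13308, and its adjusted p in limma was 0.449. Leaving out 1 array at a time gave differences of 0.35 to 0.49 and adjusted p of 0.091 to 0.84. The gap between the groups was 0.15, smaller than the range within either of them (0.22 in wild type and 0.28 in T173I).

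Egr1, the zinc finger factor that is among the first genes switched on by EGF, ran the other way. Its log2 signal was 10.82, 10.85 and 10.74 in wild type and 10.47, 10.08 and 10.21 in T173I. The 3 wild-type arrays lay within 0.11 of each other, and the highest T173I array was 0.27 below the lowest of them. The means were 10.80 ± 0.056 (SD, n = 3) and 10.26 ± 0.20 (SD, n = 3), a difference of -0.55 (95% interval -0.82 to -0.27), or 1.46-fold. Egr1 had the 62nd smallest unadjusted p of the 13308 genes (0.0025), and its adjusted p was 0.449. Without T173I replicate 1, whose value was nearest to wild type, the difference was -0.65 and Egr1 was the only member to pass, with an adjusted p of 0.044 in limma, as did 1.17% of all genes tested; leaving out any of the other 5 arrays gave adjusted p of 0.61 to 0.84.

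Of the other two EGR genes, Egr2 had a difference of the same sign as Egr1 and Egr3 one of the opposite sign. Egr2, which drives myelination and hindbrain patterning elsewhere in the body and is also serum-induced, had log2 signals of 7.60, 7.43 and 7.66 in wild type and 7.35, 7.46 and 7.43 in T173I. The groups overlapped, wild-type replicate 2 and T173I replicate 3 having the same value. The difference was -0.15 (95% interval -0.37 to 0.066.) Egr3, a zinc finger factor known for roles in muscle spindles and lymphocytes, had 5.84, 5.86 and 6.13 in wild type and 6.03, 6.75 and 6.46 in T173I. T173I replicates 2 and 3 were above all wild-type arrays, and replicate 1 was among them. Its difference was 0.47 (95% interval 0.016 to 0.93) (unadjusted p = 0.044, adjusted p = 0.486 in limma). It was 0.30 with T173I replicate 2 left out and 0.66 with T173I replicate 1 left out. Egr3 was a dim probe set, below the level at which the stricter filter set its bound.

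Among the nuclear receptor genes, Nr4a1 had the largest difference of all 10 members and also the largest spread. Nr4a1 encodes NUR77, a receptor that acts without a known natural ligand. On wild-type replicates 1 to 3 its log2 signal was 8.98, 9.07 and 9.37, and on T173I replicates 1 to 3 it was 8.82, 11.50 and 10.38. T173I replicate 1 was the lowest of the 6 arrays, and replicates 2 and 3 were the highest. The means were 9.14 ± 0.21 (SD, n = 3) and 10.23 ± 1.35 (SD, n = 3), 2.13-fold apart, a difference of 1.09 (95% interval -0.38 to 2.56) (adjusted p = 0.547 in limma). Leaving out T173I replicate 1 gave 1.80, and leaving out T173I replicate 2 gave 0.46. In the T173I group 0.331% of all tested genes had a larger SD than Nr4a1, against 13.9% in the wild-type group.

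Nr4a2, also called NURR1, had log2 signals of 10.63, 9.95 and 10.62 in wild type and 10.20, 11.14 and 10.48 in T173I. The groups were interleaved, with T173I replicate 2 above all others and wild-type replicate 2 below all others. Its difference of 0.21 had a 95% interval of -0.48 to 0.89, and it became -0.063 without T173I replicate 2 and -0.019 without wild-type replicate 2. Nr4a3, or NOR1, stood under the filter level on every array. Its values were 4.88, 4.88 and 4.61 in wild type and 4.68, 4.98 and 4.88 in T173I, a range over all 6 arrays of 0.37, and its difference of 0.055 was given no test among the 13308 genes. In the fit without the filter its 95% interval was -0.23 to 0.34.

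Of the IER genes, Ier2 and Ier5 belong to 1 family and Ier3 is unrelated to them. Ier2, a nuclear protein linked to cell motility, had log2 signals of 9.08, 9.39 and 8.88 in wild type and 8.80, 8.88 and 8.75 in T173I. The T173I arrays were all below the wild-type arrays, but the gap of 0.0036 was far smaller than the wild-type SD of 0.25. The difference was -0.31 (95% interval -0.63 to 0.018) (unadjusted p = 0.061, adjusted p = 0.493 in limma), and it was -0.17 without wild-type replicate 2. Ier2 differs from Egr1 in where the spread lay, with an SD of 0.064 in T173I and 0.25 in wild type, against 0.20 and 0.056 for Egr1.

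Ier3, an NF-kB and ERK target that modulates survival, had log2 signals of 10.21, 9.82 and 10.16 in wild type and 9.89, 11.01 and 9.98 in T173I. T173I replicate 2 stood apart, at least 0.80 above each of the other 5 arrays, which were interleaved. The difference of 0.23 had a 95% interval of -0.49 to 0.95, and it was -0.13 without T173I replicate 2. Ier5, a cofactor of the heat shock factor HSF1, had 6.98, 7.002 and 6.57 in wild type and 6.92, 7.29 and 6.91 in T173I. Again T173I replicate 2 was the highest array and the rest overlapped, with a difference of 0.19 (95% interval -0.20 to 0.58.)

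**Figure D3:**
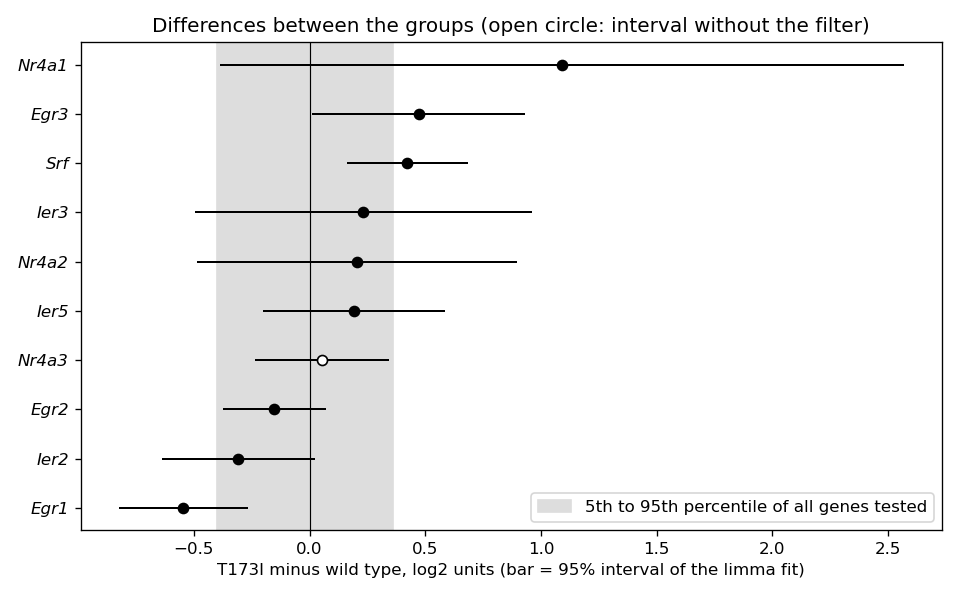
Differences between the groups in log2 units (T173I minus wild type; points) with the 95% intervals of the limma fit (bars), over the differences of all genes tested from their 5th to their 95th percentile (grey, -0.40 to 0.36). The intervals of Egr1, Egr3 and Srf do not cross 0, and that of Nr4a1, the widest, does.

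Read array by array, the 3 T173I samples differed in these genes more than the group means show. T173I replicate 2 was above the wild-type range for 7 of the 10 members and below it for 2, Egr1 and Ier2, with Egr2 within it. Of all genes tested, 31.2% were above and 39.8% below that range on this array. T173I replicate 1 was above for Srf alone and below for 4 members, Egr1, Egr2, Nr4a1 and Ier2, where the shares of all genes were 29.1% and 24.8%. T173I replicate 3 was above for Srf, Egr3 and Nr4a1 and below for Egr1 and Ier2, where the shares were 29.7% and 33.8%. The median deviation of the 10 members from their wild-type means was -0.19 on replicate 1, 0.51 on replicate 2 and 0.069 on replicate 3. The median deviation of all tested genes stayed between -0.025 and 0.0088 on the 3 arrays. Egr1, Ier2 and Srf were the members that took the same side of the wild-type range on all 3.

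**Figure D4:**
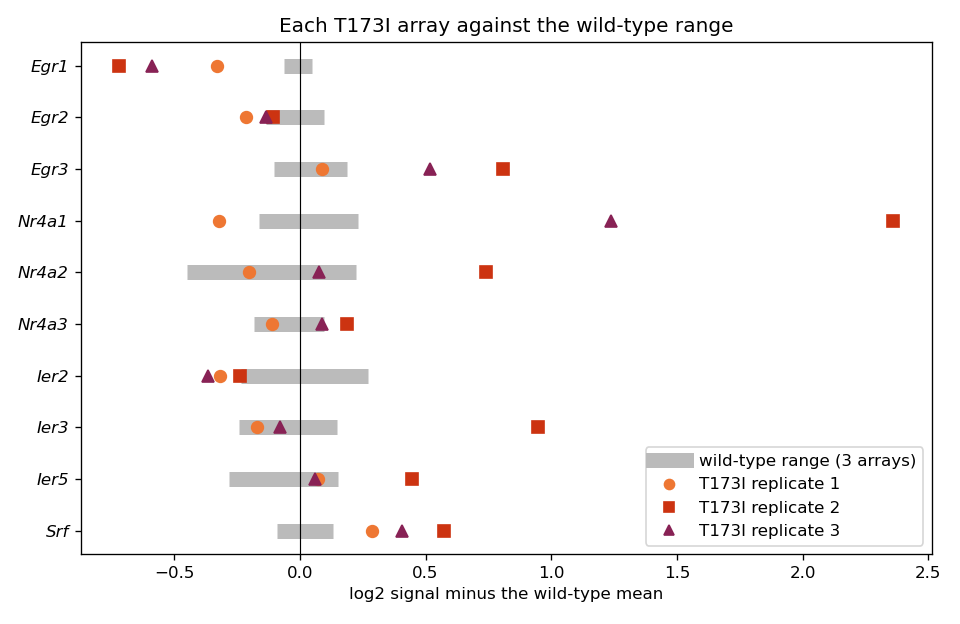
Log2 signal of each T173I array minus the wild-type mean (points), with the range of the 3 wild-type arrays as a grey bar. T173I replicate 2 lies above that range for 7 of the 10 genes and below it for 2, where the shares of all genes tested were 31.2% and 39.8%. For Nr4a1 it lies 2.36 above the wild-type mean, where replicate 1 lies at -0.32.

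The median SD of the tested members was 0.21 among wild-type arrays, against 0.098 for all genes tested, and 0.22 among T173I arrays, against 0.16. Egr1 was the exception in wild type, where 75.7% of all tested genes had a larger SD. Nr4a2 had the largest wild-type SD of the members, and 2.47% of all tested genes exceeded it. When each profile was centred on its own mean over the 6 arrays, the members nearest to each other were Nr4a2 and Ier3, with a root mean square difference of 0.15 log2 units. Srf lay at 0.18 from Egr3 and 0.19 from Ier5. Egr1 and Nr4a1 lay farthest apart, at 1.22. These distances all rest on the same 6 arrays in 2 groups.

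For 1 member of each family the 3 nearest genes of the 12391 with established names were found by the same measure. Those nearest to Egr1 were Zkscan1 (0.029), a zinc finger factor, Smpdl3a (0.048), a phosphodiesterase, and Bend7 (0.066), against a spread of Egr1 itself of 0.30. Zkscan1 had 9.97, 9.94 and 9.84 in wild type and 9.65, 9.24 and 9.36 in T173I. Neighbours were picked for closeness on these 6 arrays out of 12391 genes, so alike orders and differences follow from that choice. That includes the order of the 3 T173I arrays, which Zkscan1 and Egr1 share. The measure grows with a gene's own spread, which was 0.24 for Srf and 0.22 for Ier2. Those nearest to Srf were Rtn2 (0.047), Wsb1 (0.054), a subunit of a ubiquitin ligase, and Akirin1 (0.057), with differences of 0.45, 0.46 and 0.44. Those nearest to Ier2 were Oaz2 (0.044), an antizyme of ornithine decarboxylase, Wnt4 (0.079), a secreted signal, and Tspan5 (0.090). Those nearest to Nr4a1 were Wincr1 (0.18), Sprr1a (0.19), a cornified envelope protein, and Mest (0.23), against its own spread of 0.96. Sprr1a had 5.77, 5.58 and 5.996 in wild type and 5.88, 8.36 and 7.32 in T173I.

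Other genes of the pathway were counted in 6 lists of 88 genes, of which 79 had a value and 76 were tested. The lists, like the members, were chosen with earlier results of these data known, so their counts are descriptions. In no list did any gene pass the adjusted threshold, and 11 of the 76 had an unadjusted p under 0.05, where 10.2% of all genes did. Leaving out T173I replicate 1 raised that count to 22, with 22.1% of all genes called in that fit, and leaving out T173I replicate 3 gave 6, with 7.31% of all genes called. The counts of single lists below are to be read against the same shares, and against 7.62% where T173I replicate 2 was left out, and 5.03% to 8.08% where a wild-type array was. Among 12 tested SRF cofactors and upstream kinases, 1 gene had an unadjusted p under 0.05. This was Elk3, a ternary complex factor, at 9.03, 8.81 and 8.98 in wild type and 9.16, 9.63 and 9.82 in T173I, a difference of 0.60 (adjusted p = 0.449 in limma). Mrtfa, the actin-regulated cofactor of SRF, did not pass at an unadjusted p of 0.055, with a difference of 0.23, nor did Rps6ka3, the kinase RSK2 (-0.24), or Elk4 (-0.12). The list had a median of 0.017, and its count was 2 with wild-type replicate 3, T173I replicate 1 or T173I replicate 3 left out. The list of partners and repressors of the EGR and NR4A proteins, which also holds the Ier5-like gene Ier5l, had 6 tested genes. Of these 0 reached an unadjusted p under 0.05 in limma, and 3 did so without T173I replicate 1 (22.1% of all genes) and 1 without wild-type replicate 2. Nab1 and Nab2, which bind EGR proteins and repress them, had differences of 0.14 and 0.29, and Rxra, a partner of NR4A receptors, and Wt1 had -0.22 and -0.18.

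Among 7 tested AP-1 subunits, Jun and Fos had unadjusted p under 0.05, both lower (5.31% of all genes). Their differences were -0.57 and -0.69, and Fosb and Atf3 had 0.45 each. Fosb was at 7.82 on T173I replicate 2 and at 6.10 to 6.39 on the other 5 arrays. Of 30 other immediate early genes 3 had an unadjusted p under 0.05, Sik1 higher (4.88% of all genes) and Zfp36l1 and Irf1 lower (5.31%). Positive differences were seen for 17 (47.4% of all genes). The median of the list was 0.036, against -0.011 for all genes. Sik1, a salt-inducible kinase, was at 8.36, 8.46 and 8.61 in wild type and 9.23, 9.46 and 8.94 in T173I, a difference of 0.73. Zfp36l1, which promotes decay of AU-rich mRNAs, had -0.31, Irf1, an interferon-induced factor, had -0.54, and Phlda1, which did not reach that p, had 0.48. Leaving out T173I replicate 1 raised the count for this list to 7 (22.1% of all genes) and T173I replicate 2 to 6 (7.62%), and with T173I replicate 3 or any wild-type array left out it was 1.

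Of 16 tested cytoskeletal targets of SRF and MRTFs, 3 had an unadjusted p under 0.05, all higher in T173I (4.88% of all genes). Positive differences were seen for 12, where 47.4% of all genes had them. The median was 0.19, against -0.011 for all genes. Cnn2, an actin-binding calponin, was at 10.54, 10.72 and 10.58 in wild type and 10.98, 11.43 and 11.33 in T173I, a difference of 0.64 with the groups apart. Fhl1, a LIM domain protein of muscle, had a difference of 1.11 with the groups apart. Acta2, smooth muscle actin, had 2.13 and was at 7.92 on T173I replicate 1, within its wild-type range of 7.27 to 7.98, and at 11.74 on replicate 2. Tagln, which did not reach that p, had 0.51. The mean level of the 17 listed genes was 9.152 to 9.239 on wild-type arrays. It was 9.237 on T173I replicate 1, within that range, 9.893 on replicate 2 and 9.498 on replicate 3. Leaving out T173I replicate 1 gave 6 such genes (22.1% of all genes) and T173I replicate 3 gave 1 (7.31%). The count was 2 without T173I replicate 2 (7.62%) or any wild-type array (5.03% to 8.08%). Of 6 tested genes named in textbooks as EGR1 targets, 2 had an unadjusted p under 0.05: Fn1, fibronectin, with a difference of 0.97, and F3, tissue factor, with -0.46. Tgfb1 and Pdgfa, both growth factors, had 0.33 and 0.23. Positive differences were seen for 5 of the 6 (47.4% of all genes), while Egr1 itself was lower. Leaving out T173I replicate 1 gave 1 such gene in limma (22.1% of all genes) and T173I replicate 3 gave 0 (7.31%). The count was 3 without T173I replicate 2 (7.62%) or wild-type replicate 3 (8.08%), and 2 without wild-type replicate 1 (5.03%) or 2 (5.97%).

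**Figure D5:**
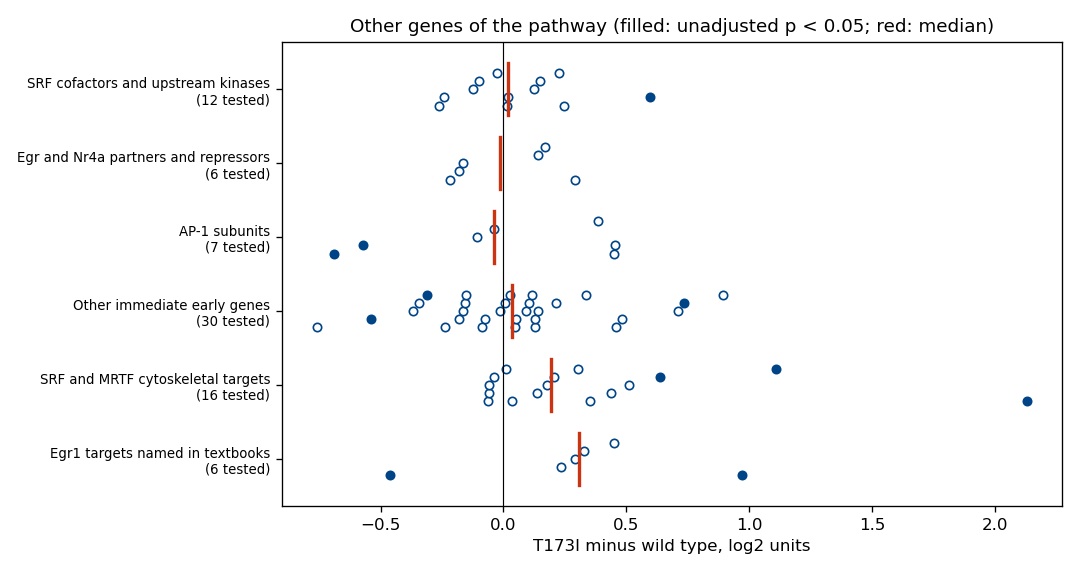
Differences in log2 units (T173I minus wild type) of the tested genes in the 6 lists; each circle is 1 gene, filled where its unadjusted p in limma was under 0.05, and the red line is the median of the list. The cytoskeletal targets of SRF and MRTFs have a median of 0.19 and 3 filled circles, all to the right of 0. Of all genes tested, 4.88% were called higher in T173I, and the median over all was -0.011. On T173I replicate 1 the mean level of the cytoskeletal list lay within the wild-type range. No gene passed the adjusted threshold.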

How the data were processed

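RNA from 6 samples was measured on Affymetrix whole-transcript arrays. The authors deposited log2 values per probe set, which the submitters' processing notes credit to RMA; no source used here gives its version or the definition of the probe sets. RMA makes the signal distributions of the arrays alike, so a shift of most transcripts one way would not be seen, and array signal has no read depth.

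Of 41345 probe sets, 23521 had 1 gene symbol in the platform annotation; the brightest by mean stood for each gene. The dimmest 40% of 22180 genes, at or under a mean log2 of 5.37, were left out. Groups were compared with limma 3.58.1 (R 4.3.3; lmFit and eBayes, two-sided, no covariate), with Benjamini-Hochberg values over 13308 genes and a threshold of 0.05. In simulated data of 13308 genes it recovered 84% of 100 genes changed 2-fold and 96% of 100 changed 4-fold, with 15 false calls. Recovery was not tested for changes under 2-fold, such as those of Srf (1.34-fold) and Egr1 (1.46-fold). Recovery at the spread of the members was not tested either. In the measured data 0 of 13308 genes passed, and Acta2, 4.37-fold apart, had an adjusted p of 0.486 in limma. Promoter windows and gene spans are those of RefSeq, assembly GRCm38.p6.

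All 10 members are named, up to 4 genes of each pathway list with the smallest unadjusted p, and the 3 genes nearest in profile to Egr1, Nr4a1, Ier2 and Srf. The members and lists were chosen with earlier results of these data known. Same-numbered arrays did not deviate together (correlations of 0.049, 0.067 and 0.048), so numbers were not treated as pairs. Alternatives changed the filter, the normalization, the eBayes prior, the choice of probe set and array weights, added the replicate block, or left out each array.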

Additional observations from a re-analysis of the deposited data

How the results depend on the processing

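Over 14 alternatives, the differences of Egr1, Egr2, Egr3, Nr4a1, Ier2, Ier5 and Srf kept their sign wherever they were tested. With 1 array left out Nr4a2 ranged from -0.063 to 0.41, its sign turning without T173I replicate 2 (-0.063) or wild-type replicate 2 (-0.019), and Ier3 ranged from -0.13 to 0.43, its sign turning without T173I replicate 2; the cause was not tested. The sign of Nr4a3, which lay under the filter, turned without wild-type replicate 3 (-0.035) or T173I replicate 2 (-0.012). The number of members past the adjusted threshold was 0 throughout, except 1 without T173I replicate 1. The number at an unadjusted p under 0.05 was 5 with array weights, when 21.5% of all genes were called, and 2 to 4 with 1 array left out. With the replicate number as a block it was 4, and 0 members passed the adjusted threshold, as without the block. The median difference of the members was 0.12 with array weights and -0.063 to 0.41 with 1 array left out, the lowest without T173I replicate 2. The count of pathway genes at an unadjusted p under 0.05 was 22 with array weights, 12 with the replicate block and 6 to 22 with 1 array left out, lowest without T173I replicate 3 and highest without T173I replicate 1. The share of all genes called moved too, to 11.3% with the block and 5.03% to 22.1% with 1 array left out. The stricter filter left Egr3 and Nr4a3 untested. Nr4a3 lay among dim probe sets, where signal over background limits what can be read, and having 3 arrays per group limits the precision of every value.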
